A study of Mus musculus with 221 samples.

Results

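Olig1, Olig2, Egfr, Pdgfra, Sox10 and Cspg4 are 6 genes of the early oligodendrocyte lineage, picked by symbol out of the 23244 features of a single-cell table of the mouse neocortex. They were chosen with their levels in these cells known, above all the levels of Olig1 and Egfr in cells with the glutamate transporter gene Slc1a3. Their levels, and their joint detection in Slc1a3 cells and neurons, are therefore given as descriptions with no test. The table covers 221 single cells of the medial neocortex of C57BL/6J embryos at E18.5, shortly before birth. The labels name no treatment and no genetic change. The cells came from 2 separate pools of 8 neocortices each, and 99 of the cells were from pool 2. The cells of a class are thus a mixture over the embryos of a pool, and the labels do not say which embryo a cell came from. Values are TPM, a transcript share, and add up to the same sum in each cell. The lowest value of a cell, here called its floor, lay between 1.33 and 2.998 TPM, and a gene counted as detected in a cell where it was above that floor.

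Oligodendrocytes wrap axons in myelin, and their precursors arise in successive waves from neural stem cells of the ventral and then the dorsal forebrain. OLIG1 and OLIG2 are basic helix-loop-helix transcription factors that bind E-box motifs in DNA, and OLIG2 is needed to specify the lineage. SOX10 is a transcription factor that keeps cells in the lineage and later drives myelin genes. PDGFRA, the receptor for platelet-derived growth factor A, and the proteoglycan NG2, made from Cspg4, mark the committed precursor. EGFR, the receptor for epidermal growth factor and related ligands, is found on late embryonic neural progenitors and is known to promote gliogenesis and the expansion of the lineage.

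In the mouse genome (GRCm38, GENCODE M21 annotation), Olig2 (chr16:91225457-91228677) and Olig1 (chr16:91269772-91271933) are neighbours on the plus strand of chromosome 16, 41.1 kb apart. Egfr (chr11:16752203-16918158), Pdgfra (chr5:75152292-75198215) and Cspg4 (chr9:56865033-56899870) are also on plus strands, and Sox10 (chr15:79154908-79165240) is on a minus strand. Olig1 is overlapped by the antisense gene Gm15966, Egfr by Egfros, and Pdgfra by Gm42802 and Gm42803. The library kit does not mark strand, so reads of such partners cannot be told apart. Sequence before the RefSeq start (GRCm38.p6) is shown for a lineage factor, Olig2, and for the 2 receptor genes, because the OLIG proteins bind E-boxes (CANNTG, read on both strands). Capitals mark the E-box. Olig2 is from chr16:91225300-91225456, Egfr from chr11:16751953-16752202 and Pdgfra from chr5:75152001-75152250, all on the plus strand.
Olig2: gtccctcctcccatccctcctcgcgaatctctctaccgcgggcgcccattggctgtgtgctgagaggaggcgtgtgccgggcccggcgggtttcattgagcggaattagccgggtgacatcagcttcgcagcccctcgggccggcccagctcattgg
Egfr: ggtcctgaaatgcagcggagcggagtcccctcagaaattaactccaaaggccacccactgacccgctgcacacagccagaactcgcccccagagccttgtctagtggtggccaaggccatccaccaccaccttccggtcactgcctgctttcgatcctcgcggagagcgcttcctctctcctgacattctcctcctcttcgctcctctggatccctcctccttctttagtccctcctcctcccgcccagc
Pdgfra: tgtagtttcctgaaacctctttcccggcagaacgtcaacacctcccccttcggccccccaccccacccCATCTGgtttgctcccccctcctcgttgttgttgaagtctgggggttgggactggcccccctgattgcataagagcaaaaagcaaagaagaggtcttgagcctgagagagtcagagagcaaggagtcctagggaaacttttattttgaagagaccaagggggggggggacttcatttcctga
Pdgfra held 1 E-box in the 250 bases before its RefSeq start, CATCTG, which began 182 bases before that start. Olig2, Egfr and Cspg4 held none in their windows of 250 bases, while 66.2% of 32851 windows of that length held at least 1. These counts describe letters in a window and say nothing of binding.

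Cells were divided by fixed levels of marker genes, in this order. Slc1a3 cells had Slc1a3 at 10 TPM or more. Eomes cells had the intermediate progenitor gene Eomes at that level. Interneuron-like and excitatory neuron-like cells each had at least 3 of their markers at that level. This gave 69 Slc1a3 cells (36 in pool 1 and 33 in pool 2), 19 Eomes cells, 22 interneuron-like cells and a largest class of excitatory neuron-like cells (61 in pool 1 and 48 in pool 2, 49.3% of all cells), with 2 cells unnamed. The last 2 named classes are together called neurons (131 cells). The name rests on these markers alone: 5 excitatory neuron-like cells and 1 interneuron-like cell also had at least 3 of 8 cycling markers at 10 TPM or more. The Slc1a3 level is a range and not a cell type: the 3 cells just inside it had 10.1, 10.2 and 12.9 TPM, the 3 just outside had 9.85, 9.55 and 9.52 TPM, and 56 of the 69 cells also had 100 TPM or more of Neurod6, a gene of excitatory neurons. The median number of genes above the floor was 4244 in Slc1a3 cells, 4279 in Eomes cells, 3971 in excitatory neuron-like cells and 3250 in interneuron-like cells. The suffix A or B in cell names, whose meaning the labels do not give, was A for 45 and B for 24 of the Slc1a3 cells. All 7 endothelial markers and all 7 meningeal fibroblast markers were at the floor in every Slc1a3 cell. Of 6 pericyte markers, 5 were above it in some Slc1a3 cell, and 0 Slc1a3 cells had 3 of them at 10 TPM or more. The erythroid gene Hba-a1 was above the floor in 18 Slc1a3 cells (26.1%) and 38 excitatory neuron-like cells (34.9%). One Slc1a3 cell of pool 2, well G5B, had all 8 microglia markers, and the main shares are given with and without it.

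Olig1 was the most widely detected of the 6 genes, in 34 of 221 cells. In Slc1a3 cells it was found in 14 of 69, or 20.3% (exact 95% interval 11.6 to 31.7%, counting error only), with 7 cells in each pool. It was also above the floor in 16 of 131 neurons, or 12.2% (7.15 to 19.1%), 8 of them in each pool. The 2 intervals overlapped, which does not test the difference. The classes also differed in level. In the 14 Slc1a3 cells the lowest Olig1 value was 11.02 TPM, the median was 341 and the highest was 1996. In the 16 neurons the lowest was 1.86, the median was 110 and the highest was 498. Olig1 reached 500 TPM in 5 Slc1a3 cells and in 0 neurons. The mean over all cells of a class was 116.7 TPM in Slc1a3 cells (133 in pool 1 and 98.9 in pool 2) and 18.47 TPM in neurons (16.1 and 21.6). At a stricter limit of 10 TPM, all 14 Slc1a3 cells stayed but 11 neurons remained (8.40%).

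**Figure D1:**
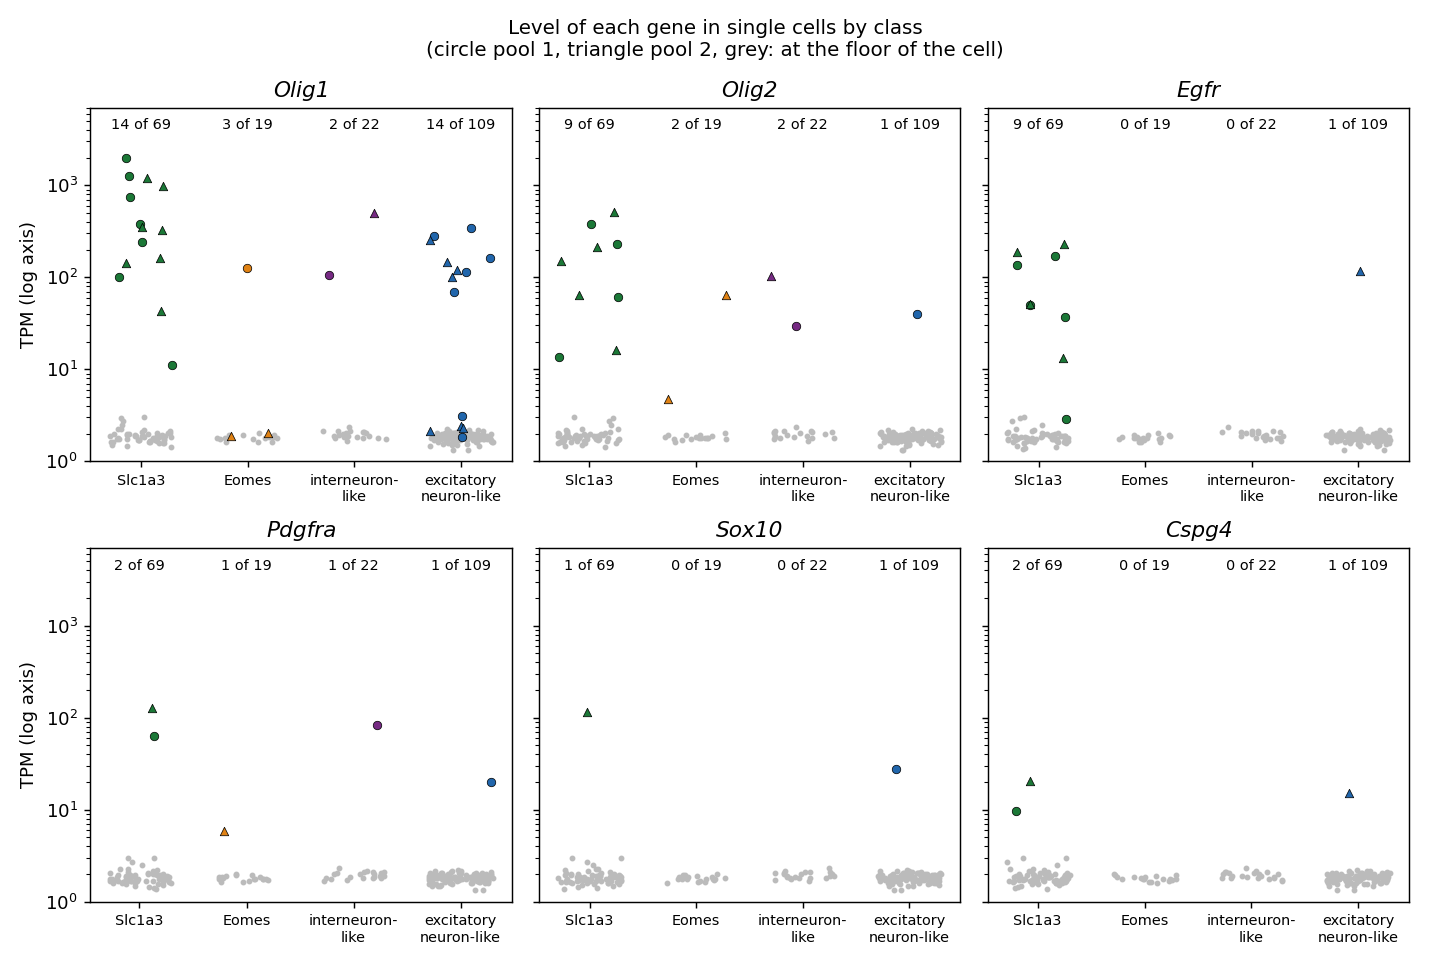
TPM of each of the 6 genes in every cell of the 4 named classes, on a log axis. Coloured circles (pool 1) and triangles (pool 2) are cells above the floor, grey dots are cells at the floor, and the numbers give the cells above it. Olig1 values above 500 TPM lie in Slc1a3 cells alone, and Pdgfra, Sox10 and Cspg4 are above the floor in few cells of any class.

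Among neurons, 14 of the 16 cells with Olig1 were excitatory neuron-like, 7 in each pool. In these 14 cells Olig1 ran from 1.86 to 342 TPM with a median of 107.3, and 9 of them had 10 TPM or more. Each of the 14 had Olig1 with none of the other 5 genes, each of which was above the floor in only 1 cell of this class. The 2 interneuron-like cells had 106.9 and 498 TPM. Of the Eomes cells, 3 of 19 had Olig1 (1.90, 2.05 and 126 TPM), so a single Eomes cell was well above its floor. In order of the share of cells, Olig1 stood at 20.3% in Slc1a3 cells, 15.8% in Eomes cells (3.38 to 39.6%), 12.8% in excitatory neuron-like cells (7.20 to 20.6%) and 9.09% in interneuron-like cells (1.12 to 29.2%). The intervals of neighbours in that order overlapped, which again does not test their differences.

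**Figure D2:**
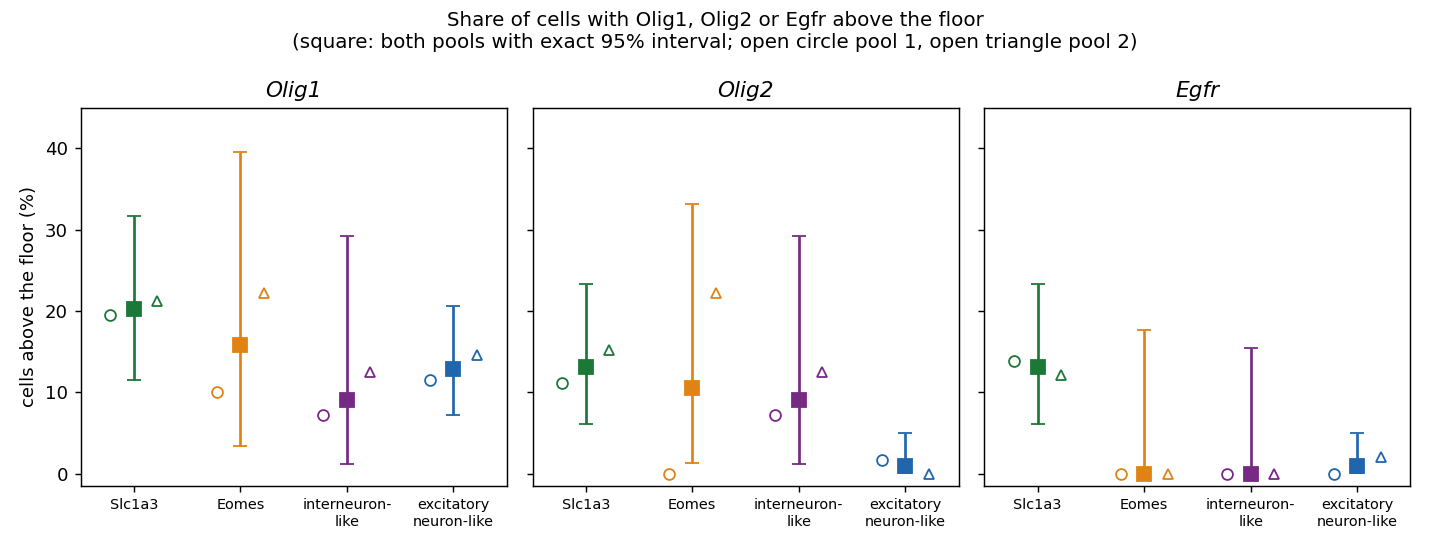
Share of cells above the floor for Olig1, Olig2 and Egfr in each class. Squares with bars are both pools with the exact 95% interval, and open symbols are the single pools. Olig1 is spread over all 4 classes, while Egfr is at 13.04% in Slc1a3 cells and at or under 0.917% in the others.

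Olig2, the factor that specifies the lineage, was rarer in neurons than Olig1. It was above the floor in 9 of 69 Slc1a3 cells, or 13.04% (6.14 to 23.3%), with 4 in pool 1 and 5 in pool 2. It was above the floor in 1 excitatory neuron-like cell (40.3 TPM; 0.917% of the class), in 2 of 22 interneuron-like cells (29.3 and 102.99 TPM) and in 2 of 19 Eomes cells (4.81 and 64.1 TPM). In Slc1a3 cells the values were 13.8, 61.8, 230 and 380 TPM in pool 1 and 16.2, 64.99, 149, 216 and 507 TPM in pool 2. Both pools thus held cells with a low and cells with a high level.

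The 2 Olig genes went together in Slc1a3 cells. Of the 9 Slc1a3 cells with Olig2, 8 also had Olig1, and these were 57.1% of the 14 with Olig1. The pair was found in 8 of 69 Slc1a3 cells (11.6%). No excitatory neuron-like cell had it, in a class where 14 cells had Olig1 but only 1 had Olig2, so little overlap was possible. It was also found in 1 interneuron-like cell. That cell, well C4B of pool 2, had 498 TPM of Olig1 and 102.99 TPM of Olig2. It also carried the interneuron genes Dlx1 (217 TPM), Dlx2 (237 TPM) and Lhx6 (289 TPM) and 7 of 8 cycling markers at 10 TPM or more. Dlx genes are known from ventral progenitors, where OLIG2 is also made. The ventral progenitor markers Gsx1, Gsx2, Nkx2-1 and Lhx8 were at the floor in every interneuron-like cell. The origin of C4B was not tested.

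At least 2 of the 6 genes were above the floor in 9 of 69 Slc1a3 cells, or 13.04% (6.14 to 23.3%), against 1 of 131 neurons, or 0.763% (0.0193 to 4.18%), and 1 of 19 Eomes cells. That neuron was C4B, the interneuron-like cell with cycling markers described above. Over all cells, 50 had at least 1 of the genes, 39 exactly 1, 6 had 2, 4 had 3 and 1 had 5. Among the Slc1a3 cells, 5 had Olig1 alone, 5 had Egfr alone, 3 had Olig1 with Olig2, and 3 had Olig1, Olig2 and Egfr. The remaining Slc1a3 combinations were seen in 1 cell each. The Eomes cell, well H2A of pool 2, had Olig2 at 64.1 TPM and Pdgfra at 5.92 TPM, and with Slc1a3 at 9.55 TPM it was among the 3 cells just outside the Slc1a3 level.

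**Figure D3:**
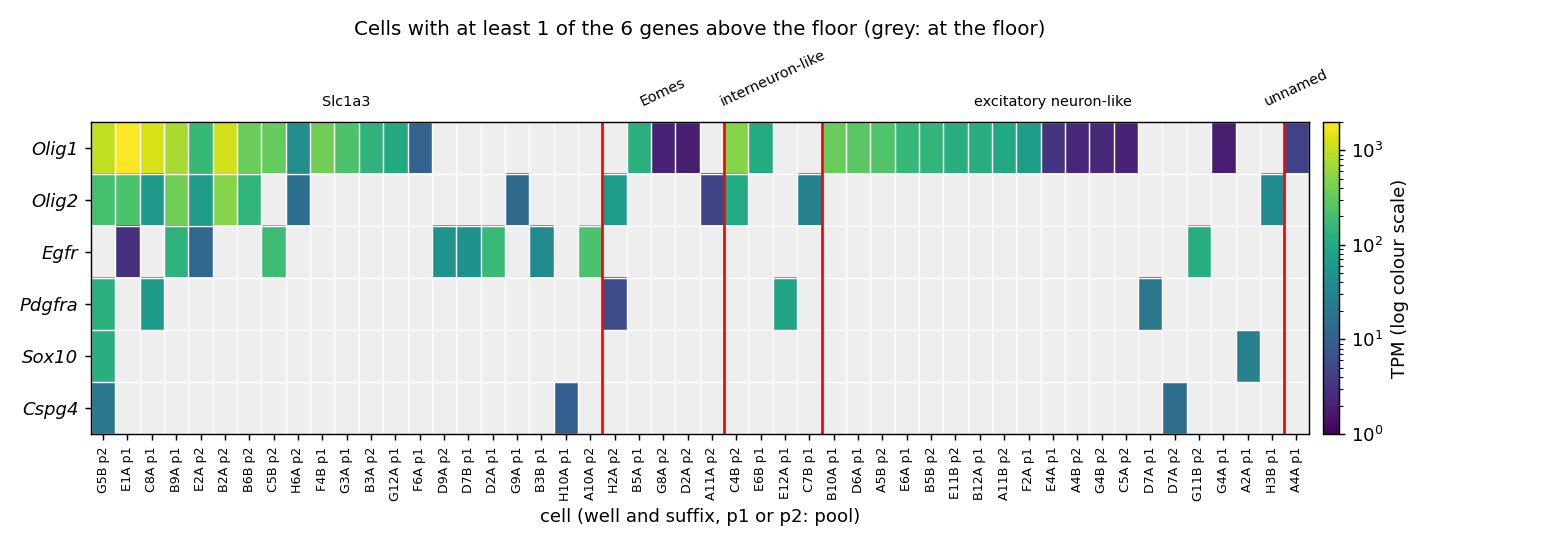
The 50 cells with at least 1 of the 6 genes above the floor, in columns grouped by class, with TPM on a log colour scale and grey for values at the floor. Columns with several filled squares lie on the left, among the Slc1a3 cells, while the excitatory neuron-like cells have 1 filled square each.

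Egfr was almost confined to Slc1a3 cells in these libraries. It was above the floor in 9 of 69 of them, or 13.04% (6.14 to 23.3%), 5 in pool 1 and 4 in pool 2, and in 1 of 131 neurons. The values in pool 1 were 2.89, 36.9, 49.98, 135 and 172 TPM, and those in pool 2 were 13.2, 51.3, 190 and 231 TPM. The neuron, an excitatory neuron-like cell of pool 2, had 116.04 TPM. Egfr was detected in 0 of 22 interneuron-like cells, which allows a share of up to 13.6% (taken as 3 counts of the total, counting error only), and in 0 of 19 Eomes cells, which allows up to 15.8%. Of the 9 Slc1a3 cells with Egfr, 4 also had Olig1 and 3 also had Olig2. In 1 of those 4, well E1A of pool 1, Egfr was at 2.89 TPM and so close to the floor. No cell had Egfr above the floor together with Pdgfra, Sox10 or Cspg4. Egfr was detected in 10 of 221 cells and these genes in 5, 2 and 3, so little overlap was possible.

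Other genes of the EGF pathway showed which partners were present. Of the 3 other receptors, Erbb2, the shared partner without a ligand of its own, was above the floor in 2 Slc1a3 cells and in no neuron. Erbb3 was at the floor in all cells. Erbb4, a neuregulin receptor of migrating interneurons, was above the floor in 13 of 22 interneuron-like cells, 7 of 69 Slc1a3 cells and no excitatory neuron-like cell. Among the ligands, Nrg1 was above the floor in 21 of 69 Slc1a3 cells (30.4%), 5 of 19 Eomes cells (26.3%), 1 interneuron-like cell and 6 excitatory neuron-like cells (5.50%). Hbegf was above the floor in 18 Slc1a3 cells, 1 Eomes cell, 5 interneuron-like cells and 29 excitatory neuron-like cells, and Tgfa in 5 Slc1a3, 2 Eomes and 4 excitatory neuron-like cells. Egf, Ereg and Epgn were at the floor in all cells. Areg was above it in 1 interneuron-like cell, Btc in 1 Slc1a3 and 1 excitatory neuron-like cell, and Nrg2 in 2 and 5. Nrg3 was above it in 10 Slc1a3 cells, 1 Eomes cell, 5 of 22 interneuron-like cells and 13 excitatory neuron-like cells.

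The genes of the committed precursor were rare. Pdgfra was above the floor in 5 cells: 2 Slc1a3 cells (62.9 and 127 TPM), 1 Eomes cell (5.92 TPM), 1 interneuron-like cell (83.4 TPM) and 1 excitatory neuron-like cell (20.2 TPM). That last cell had 2 pericyte markers, among them Rgs5 at 57.95 TPM. Sox10 was above the floor in 1 Slc1a3 cell (115.83 TPM) and 1 excitatory neuron-like cell (27.7 TPM). Cspg4 was above the floor in 2 Slc1a3 cells (9.64 and 20.4 TPM) and 1 excitatory neuron-like cell (15.3 TPM). In Slc1a3 cells these counts are 2.90% (0.353 to 10.1%) for Pdgfra and for Cspg4 and 1.45% (0.0367 to 7.81%) for Sox10. The ligand of the PDGF receptor, Pdgfa, was above the floor in 9 Slc1a3 cells, 1 Eomes cell, 3 interneuron-like cells and 11 excitatory neuron-like cells. Pdgfb was above it in 2 excitatory neuron-like cells, Pdgfc in 4 Slc1a3 cells, 1 Eomes cell and 1 excitatory neuron-like cell, Pdgfrb in 1 Slc1a3 and 1 excitatory neuron-like cell, and Pdgfd in none.

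A single cell had more than 3 of the 6 genes. Well G5B of pool 2 had Olig1 at 985 TPM, Olig2 at 216, Pdgfra at 127, Sox10 at 115.83 and Cspg4 at 20.4, with Egfr at the floor. It also had the precursor genes Bcas1 (146 TPM) and Lhfpl3 (174 TPM) and the myelin gene Mbp (33.4 TPM). Its Slc1a3 level was only 17.5 TPM. The same cell had all 8 microglia markers above the floor, with C1qb, a complement gene, at 5495 TPM and Tyrobp at 5397 TPM, and a summed marker level of 19698 TPM. Any other cell had at most 3 of these markers. Its 6271 genes above the floor were the second highest number of all cells. No doublet caller was run, and the part of a second cell in its values was not tested. Without it, Sox10 was above the floor in no Slc1a3 cell, Pdgfra and Cspg4 in 1 each, Olig1 in 13 of 68 (19.1%) and Olig2 in 8 of 68 (11.8%). The pair of Olig genes was then found in 7 of 68 Slc1a3 cells (10.3%), and at least 2 of the 6 genes in 8 of 68 (11.8%).

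Well C8A of pool 1 was the other Slc1a3 cell with Pdgfra. It had Olig1 at 1254 TPM, Olig2 at 61.8 and Pdgfra at 62.9, with Slc1a3 at 145 TPM. Its other precursor genes were Bcas1 (84.9 TPM), Pcdh15 (93.4 TPM), Lhfpl3 (54.3 TPM), the secreted protein gene C1ql1 (156 TPM) and Bcan (60.7 TPM). All 8 cycling markers were at 10 TPM or more in this cell, among them Birc5 at 1593 and Cdk1 at 628 TPM, and no microglia marker was above the floor. Well E1A of pool 1 had the highest Olig1 level, 1996 TPM, with Olig2 at 230 TPM and no Pdgfra. It had Bcas1 at 46.8 TPM, Nkx2-2, a transcription factor of the lineage, at 20.2 TPM, and also Aldh1l1, an astrocyte lineage enzyme, at 192 TPM. Bcas1 was above the floor in these 3 cells alone of the 221.

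Within the Slc1a3 cells, Olig1 lay mostly where Slc1a3 was high. It was above the floor in 13 of 38 cells with Slc1a3 at 100 TPM or more (34.2%, 19.6 to 51.4%; 7 of 21 in pool 1 and 6 of 17 in pool 2). It was above the floor in 1 of 31 cells between 10 and 100 TPM, and that cell was G5B. For Olig2 these counts were 8 and 1, and for Egfr 8 and 1. Among the 13 Slc1a3 cells with less than 100 TPM of Neurod6, 6 had Olig1 and 5 had Olig2, against 8 and 4 of the 56 others. For Egfr the counts were 2 of 13 and 7 of 56.

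Cells with cycling genes held many of the Olig1 and Olig2 detections. Of 13 Slc1a3 cells with at least 3 of 8 cycling markers at 10 TPM or more, a limit set after the data were seen, 7 had Olig1 (53.8%, 25.1 to 80.8%). Of the other 56 cells, 7 had it (12.5%, 5.18 to 24.1%). All 13 cycling cells had Slc1a3 at 100 TPM or more. Among the other 25 cells at that level 6 had Olig1 (24%, 9.36 to 45.1%). This interval overlaps that of the cycling cells, which does not test the difference. By pool the counts were 2 of 5 against 5 of 31, and 5 of 8 against 2 of 25. The cycling share was thus higher in both pools, on few cells. Olig2 was above the floor in 6 of 13 cycling and 3 of 56 other cells, and Egfr in 3 and 6. The single highest Olig1 level, 1996 TPM, was in a cell with 2 cycling markers. Well C8A, described above, had a high Olig1 level with all 8 of them.

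**Figure D4:**
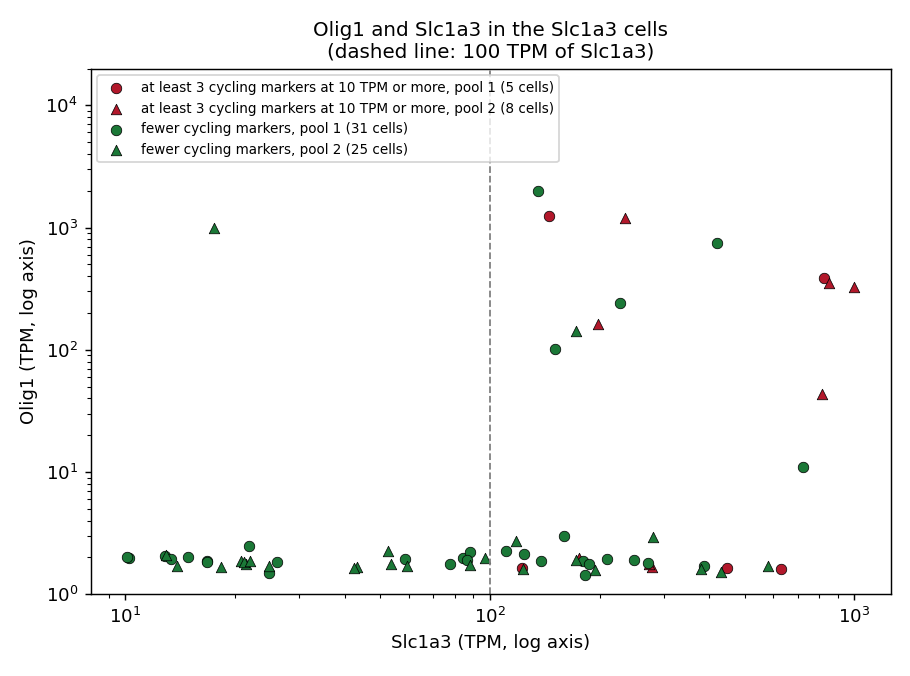
Olig1 against Slc1a3 in the 69 Slc1a3 cells, both in TPM on log axes, with cycling cells in red, other cells in green, circles for pool 1 and triangles for pool 2. Left of the dashed line at 100 TPM of Slc1a3, 1 of 31 cells has Olig1 above the floor, and right of it 13 of 38.

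The 14 Slc1a3 cells with Olig1 were set beside the 55 without it for the other list genes. These counts describe cells that share pools, and the genes named here were picked after their values were seen. The median number of genes above the floor was 5021 with Olig1 and 4198 without it, and the part of that gap in the counts was not tested. Of the oligodendrocyte precursor list, 16 other genes were above the floor in at least 1 Slc1a3 cell. The share of cells was higher with Olig1 for 15 of these and lower for 1 (Tnr), with a median difference of 14.3 percentage points. Over all 13273 features the share was higher with Olig1 for 7167 and lower for 5799, with a median difference of 1.69 percentage points. Bcan, which encodes the matrix proteoglycan brevican, was above the floor in 10 of 14 against 11 of 55 cells, the G protein subunit gene Gng12 in 12 against 15, and the chromatin remodeller gene Chd7 in 11 against 18. Bcas1, Pcdh15 and Nkx2-2 were above the floor in 3, 2 and 2 cells with Olig1 and in none without it. Without G5B the list again had 15 higher and 1 lower, and Bcas1 and Pcdh15 were above the floor in 2 cells and 1 cell with Olig1. Over all features without G5B, the share was higher for 6647 and lower for 6110. Among the 38 cells with Slc1a3 at 100 TPM or more, 14 of the 16 genes had a higher share with Olig1 and 2 a lower one (Tnr and Emid1). Over all 12519 features there, the share was higher for 6317 and lower for 5817. The median number of genes above the floor was 4903 with Olig1 and 4214 without it in these cells. The gaps were smaller there for Bcan, in 9 of 13 cells with Olig1 against 10 of 25 without, for Gng12 in 11 against 13, and for Chd7 in 10 against 12.

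**Figure D5:**
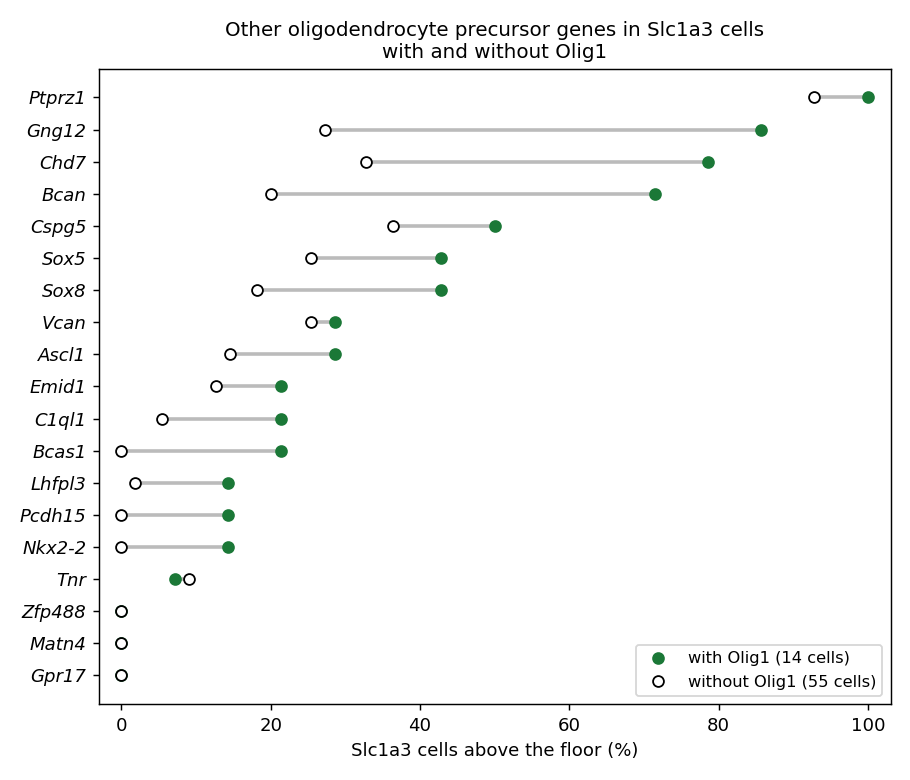
Percent of Slc1a3 cells above the floor for 19 other genes of the precursor list, in the 14 cells with Olig1 (filled) and the 55 without it (open). The filled point lies to the right for 15 genes and to the left for Tnr, and 3 genes are at 0 in both.

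Astrocyte lineage genes shared the pattern. All 11 genes of that list that were above the floor in Slc1a3 cells had a higher share with Olig1, with a median difference of 34.7 percentage points. The fibroblast growth factor receptor gene Fgfr3 was above the floor in 9 of 14 cells with Olig1 and 3 of 55 without, and the glutamate transporter gene Slc1a2 in 9 and 10. Of 12 gliogenic factors, 9 had a higher share and 1 a lower one. Sox9 and the Notch target Hes5 were above the floor in all 14 cells with Olig1, against 22 and 33 of 55. Stat3, which acts downstream of cytokine receptors, was above it in 9 against 6. Among the 38 cells with Slc1a3 at 100 TPM or more, Fgfr3 was above the floor in 9 of 13 cells with Olig1 and 1 of 25 without, and all 11 astrocyte lineage genes again had a higher share with Olig1. The gap was smaller than over all Slc1a3 cells for Slc1a2, in 8 of 13 against 8 of 25 cells, and for Stat3, in 8 against 5. The pattern was wider than these lists. All 8 cycling markers had a higher share with Olig1, and no marker of radial glia (cortical progenitors) had a lower one. Among the latter, Mfge8 was above the floor in 14 of 14 against 21 of 55 cells, Vim in 13 against 28 and Hopx in 12 against 29. The excitatory neuron marker Neurod2 went the other way, in 7 against 49. The cause was not tested. The myelin list did not share the pattern: 2 of 6 genes had a higher share and 4 a lower one, or 1 and 5 without G5B. Gpr17, Zfp488, Mag, Mobp, Mal, Opalin, Enpp6, Ermn and Myrf (listed as Gm98) were at the floor in all 221 cells.

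Adaptor and feedback genes of receptor tyrosine kinases, which carry the receptor signal or limit it, were more mixed. Of 17 genes, 11 had a higher share with Olig1 and 6 a lower one, with a median difference of 10.6 percentage points. Dusp6, a phosphatase for ERK, was above the floor in 7 of 14 against 6 of 55 cells, the transcription factor genes Etv5 in 9 against 16 and Etv4 in 6 against 5, and the inhibitor gene Spry2 in 4 against 1. Sos1, the exchange factor that activates RAS, was above the floor in 0 of 14 against 19 of 55 cells. Among the cells with Slc1a3 at 100 TPM or more, Sos1 was above it in 0 of 13 cells with Olig1 against 6 of 25 without. Dusp6 was above it there in 6 against 4, and Etv5 in 9 against 11. Of the hedgehog list, 8 of 10 genes had a higher share, among them the transducer gene Smo in 7 of 14 against 7 of 55. With Slc1a3 at 100 TPM or more this was 7 of 10 genes, with Smo in 6 of 13 against 4 of 25. Shh itself was at the floor in all named classes.

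The genes whose levels were most like that of Olig1 over the 69 Slc1a3 cells were found among 6447 genes above the floor in at least 18 of them. By Pearson r of log2(TPM + 1) they were the Notch target Hey1 (r = 0.57, Spearman rho = 0.52), the endothelin receptor gene Ednrb (0.55 and 0.56), Mfge8 (0.55 and 0.39), the RNA-binding protein gene Qk (0.54 and 0.32) and Id1 (0.51 and 0.32). Without G5B the r values were 0.62, 0.52, 0.55, 0.53 and 0.57. Hey1 and Ednrb were each above the floor in 11 of the 14 cells with Olig1, and Mfge8 and Qk in all 14. These values are over cells of shared pools, 55 of them with Olig1 at the floor. Only Olig1 was above the floor in the 10 Slc1a3 cells needed for this measure.

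Class differences over all genes were tested with limma. Each class had 1 profile per pool (n = 2), the mean of log2(TPM + 1) over its cells, and a gene was called where the adjusted p was under 0.05 and the log2 difference 1 or more in size. Of the 6 genes, Olig1, Olig2 and Egfr were above the floor in the 10 cells needed to enter. Between Slc1a3 cells and excitatory neuron-like cells 0 of 10728 genes were called (0%), with 459 at an unadjusted p under 0.05. That is less than a 0.05 share of the genes tested. With Slc1a3 cells limited to 100 TPM or more, 24 genes were called (0.224%), all higher in Slc1a3 cells, among them Bcan and Gng12 of the precursor list and Aldoc of the astrocyte list. Their log2 differences were 2.29 ± 0.34 (SE) for Bcan, 2.52 ± 0.41 for Gng12 and 4.81 ± 0.55 for Aldoc. Bcan entered the fit through its Slc1a3 cells, so its difference is a description. With the Slc1a3 cells under 100 TPM of Neurod6 alone, 150 genes were called (1.4%), 46 of them lower in Slc1a3 cells and the rest higher. That set had 10 cells in pool 2 and too few in pool 1, so its single profile was assumed to vary like the other classes. It was also chosen for a low level of a neuron gene and set against a class defined by neuron markers, so its count is given as a value alone.

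In that comparison the log2 differences of the 6 genes are descriptions, since their levels in these classes chose them. Olig1 was 0.89 higher in Slc1a3 cells than in excitatory neuron-like cells (0.83 in pool 1 and 0.96 in pool 2), Olig2 was 0.68 higher (0.51 and 0.85) and Egfr was 0.52 higher (0.56 and 0.48). With Slc1a3 at 100 TPM or more these differences were 1.77, 1.07 and 0.86, and with the Slc1a3 cells under 100 TPM of Neurod6 they were 2.09, 2.04 and 0.80. The mean of logs is small because most cells were at the floor. As the log2 of the mean TPM the differences were 2.76, 3.07 and 2.001. In the main comparison the 11 precursor list genes tested had a median log2 difference of 0.64, against 0.08 over all genes, and 0 of them were called. The 10 astrocyte lineage genes tested had 0.76, and the 15 adaptor and feedback genes of receptor tyrosine kinases had 0.09.

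Against interneuron-like cells, 73 of 10728 genes were called for Slc1a3 cells (0.68%), 51 higher and 22 lower, and 41 with the pool as a block. Of the lists, Bcan (1.35 ± 0.23) and Aldoc (2.54 ± 0.50, limma adjusted p = 0.0498) were higher in Slc1a3 cells. Erbb4 was lower (-3.07 ± 0.39). Bcan was above the floor in 21 Slc1a3 cells, 3 excitatory neuron-like cells and 0 interneuron-like cells, and so entered the fit through its Slc1a3 cells. Erbb4 likewise entered through its interneuron-like cells. The differences of these genes are therefore descriptions. Between interneuron-like and excitatory neuron-like cells 52 genes were called (0.485%), 28 higher and 24 lower. Erbb4 was higher in interneuron-like cells (3.35 ± 0.39, again a description), and Id2 (-3.20 ± 0.53) and Nfix (-2.87 ± 0.44) were lower. These 5 are all the list genes called in the 2 comparisons, and they were named after their values were seen. Both comparisons share the interneuron-like profiles.

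Between Eomes and excitatory neuron-like cells 0 of 10728 genes were called (0%), with 1119 at an unadjusted p under 0.05. The differences of the 6 genes among the neuron classes and the Eomes cells are descriptions too, since Olig2 and Egfr entered the fit through their Slc1a3 cells. The mean log2(TPM + 1) of Olig1 was 2.199 in interneuron-like cells, 1.98 in excitatory neuron-like cells and 1.77 in Eomes cells. The pools differed in direction: interneuron-like minus excitatory neuron-like was -0.057 in pool 1 and 0.49 in pool 2, and Eomes minus excitatory neuron-like was 0.050 and -0.47. For Olig2 the means were 1.99, 1.52 and 1.80. Its differences from excitatory neuron-like cells were 0.25 and 0.70 for interneuron-like cells, and -0.075 and 0.63 for Eomes cells.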

How the data were processed

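Single cells were captured on a Fluidigm C1 chip, and full-length cDNA was made into libraries with a transposase kit, per the labels' protocols. TPM values per gene were made by the authors and deposited as a table. The submitters' processing notes name TopHat2 2.0.14, Bowtie2 2.2.6, Cufflinks 2.2.1 and the mouse build mm10. Each cell sums to 1000000 TPM and no value is 0, so a value above the cell's floor counted as detected. A second deposited table with identical values was not used. Read depth is unknown, because TPM keeps none. The 2146 to 6727 genes above the floor per cell are the only guide to it.

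Gates, lists and the 6 genes were chosen with earlier results of these data known. The genes to be named were the 6, up to 4 called genes per list between Slc1a3 and excitatory neuron-like cells, all ligands and receptors of the EGF and PDGF lists, and the 5 genes most like a gene found in at least 10 Slc1a3 cells. Of 123 symbols in 10 lists, 120 were in the table by name or by a RefSeq synonym, and Sox6, Nkx6-2 and Aqp4 were not analysed here. The same holds for the markers Btg2, Hbb-bs and Hbb-bt. Single values of some list genes are not reported here. Intervals are exact Clopper-Pearson intervals at 95%, except that the limit for a count of 0 is 3 counts of the total.

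Classes with at least 4 cells per pool gave 8 profiles of mean log2(TPM + 1), pseudocount 1. The tool was limma 3.58.1, run in R 4.3.3 (trend and robust variances, 4 residual degrees of freedom, two-sided, Benjamini-Hochberg), all classes sharing the spread estimate. A gene needed 10 cells above the floor, which 10746 genes met, and 10728 were tested after the 18 gate markers were left out. The script was tested on simulated data. Classes of a pool come from the same embryos, so the pool pairs them by design. Across genes, the deviations of the classes within a pool were correlated by 0.0079 to 0.066, and the pool was left out of the main fit. Promoter windows were in the RefSeq table for 4 of the 6 genes.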

Additional observations from a re-analysis of the deposited data

How the results depend on the processing

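The share of Slc1a3 cells with Olig1 was 20.3%, and 34.2% with Slc1a3 at 100 TPM or more. Without Slc1a3 cells that had 100 TPM or more of Neurod6 it was 46.2%, and the shares with Olig1 and Olig2 and with 2 or more of the genes were both 38.5% (5 of 13 cells). The single neuron with Egfr and the single neuron with 2 genes were suffix B cells of pool 2, so those shares were 0% among suffix A cells. Without replicate 1 or 2 they ranged from 0 to 1.79%, and the share of Slc1a3 cells with Olig1 ranged from 19.4 to 21.2%. Calls between Slc1a3 and excitatory neuron-like cells numbered 0, but 24 with Slc1a3 at 100 TPM or more and 150 without the cells high in Neurod6. Against interneuron-like cells the 73 calls became 37 with a pseudocount of 10, 46 with no filter, 41 with the replicate block, 7 with the log2 of the mean value, 180 and 213 with these narrower Slc1a3 sets, and 172 with pool and suffix as the unit. Between interneuron-like and excitatory neuron-like cells the 52 calls became 32 with a pseudocount of 10, 12 with the log2 of the mean, 29 and 7 with the narrower sets, whose spread all comparisons share, and 125 with pool and suffix as the unit. Between Eomes and excitatory neuron-like cells the 0 calls became 3 with the log2 of the mean and 82 with pool and suffix as the unit. Pool and suffix units of 1 pool are not independent. The causes were not tested. The replicate block changed no other count by over 1.5 times. Leaving out G5B gave 60 calls against interneuron-like cells and 53 between the neuron classes. No count was made without replicate 1 or 2, which leaves no residual degrees of freedom.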
